A study of Homo sapiens with 12 samples.

Results

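The genes described here are 9 transcription factors of the squamous lineage: TP63, SOX2, PITX1, KLF4, KLF5, GRHL2, GRHL3, OVOL1 and ZNF750. They were taken by symbol from the deposited table of counts per gene, where all 9 were found among 19225 entries, and 8 of them had enough counts to be tested. The cells were HN6 and HN30, established lines of oral squamous cell carcinoma (OSCC), and each condition was sequenced 24 h after transfection. FAT1, which encodes an atypical cadherin of the cell surface, was silenced with siFAT1-1 or with siFAT1-2, small interfering RNAs that the sample labels also call FAT1-sh1 and FAT1-sh2. The control cells (NC) received a scrambled siRNA, so every library came from transfected cells. With 2 repeats of each of the 6 conditions there were 12 libraries, 4 of NC and 8 of FAT1 knockdown (KD), and the knockdown was transient. Neither line is normal oral epithelium, and the labels and methods used here do not give the FAT1 genotype of either line.

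Stratified squamous epithelium is renewed from a basal layer, whose cells stop dividing and build a barrier as they move up. TP63 encodes p63, the master regulator of the basal state, and SOX2 is a partner of p63 in many squamous tumours, where both genes can be amplified together on the long arm of chromosome 3. PITX1 is a homeobox factor that helps keep oral and squamous tumour epithelium in its identity. KLF5 is active in proliferating basal cells, KLF4 drives barrier formation, the grainyhead-like factors GRHL2 and GRHL3 maintain junctions and the barrier, OVOL1 restrains proliferation and mesenchymal genes, and ZNF750 is a p63 target that turns on terminal differentiation.

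Total counts ran from 26430049 to 47639010 per library and 14719 to 15350 genes were detected. Levels are given as CPM, counts scaled to library size. The correlation of log2 CPM between the repeats of a condition was lowest in HN6 NC, at 0.942, and highest in siFAT1-1 of HN30, at 0.99. FAT1 fell in the KD libraries as the labels state: over both lines its log2 fold change was -1.59 ± 0.31 (SE) against NC, with an adjusted P of 0.0404 (edgeR). Its mean level in siFAT1-1 cells was 17.1% of NC in HN6 and 39.3% in HN30, and in siFAT1-2 cells 28.0% and 65.4%. By line (edgeR), KD against NC gave -2.19 for FAT1 in HN6 (adjusted P of 0.0558) and -0.98 in HN30 (0.204). The difference between the lines was 1.21 ± 0.43 (SE), at an unadjusted P of 0.0184 and an adjusted P of 0.974. In HN30 the fall with siFAT1-2 was -0.61 ± 0.35 (SE), with an adjusted P of 0.422. Of the squamous markers checked, KRT5 reached 290 to 1987 CPM in HN6 and 90.6 to 1226 in HN30, and DSG3, PERP and KRT6A were present in every library. KRT14 was at 0 in 5 of 6 HN30 libraries and held 8 to 94 counts in HN6, so a defining basal keratin had few counts in either line. The simple epithelial keratins KRT8 and KRT18 were high in both lines, and the summed level of the 10 markers of simple and glandular epithelium was 8397 to 15087 CPM in HN6 against 3060 to 6772 in HN30. The 12 markers of fibroblasts, leukocytes and endothelium summed to 135 to 282 CPM in HN6 and 38.9 to 69.1 in HN30, most of it COL1A1 and CD68; the leukocyte marker PTPRC had at most 1 count in any library. The part of these markers in the differences between the lines was not tested.

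The members lie on different chromosomes except for the pair on chromosome 3. In GENCODE release 44 on GRCh38, the assembly also called hg38 that the authors mapped to, SOX2 is a gene of 1 exon at chr3:181711925-181714436 and TP63 spans chr3:189631389-189897276, both on the plus strand. TP63 has 6 annotated starts of coding transcripts. Of its 12 coding transcripts, 5 begin at the upstream starts, at positions 189631389, 189631488 and 189631516, and 7 at the internal starts, at 189789659, 189789675 and 189789801. The internal starts give the short amino-terminal forms (ΔN) that are the usual p63 of basal cells. Counts per gene sum all of these forms, so a shift between them is not seen here. PITX1 lies at chr5:135027734-135034813 (minus strand), KLF4 at chr9:107484852-107490482 (minus), KLF5 at chr13:73054976-73077541 (plus), GRHL3 at chr1:24199558-24364482 (plus), OVOL1 at chr11:65787063-65797214 (plus) and ZNF750 at chr17:82829434-82840022 (minus). Exons of TBCD, on the opposite strand, overlap those of ZNF750. The sources used here do not say whether strand was used in counting, so reads of this pair may not be fully told apart. PITX1, KLF4, GRHL2 and OVOL1 each share exon positions with an opposite-strand noncoding gene and carry the same limit.

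The 250 bases before the RefSeq start (GRCh38.p14) are shown for TP63, whose place in the order of levels differed most between the lines, and for KLF4 and KLF5, relatives whose levels differed between the lines in opposite directions. Windows were matched by symbol for 6 of the 9 members. Capitals mark each GC box, searched as CCGCCC on both strands with overlaps counted, the kind of site that Krüppel-like and SP factors bind. The TP63 window belongs to the upstream start, not to the internal one, and the KLF5 window to the downstream of its 2 starts.

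TP63, chr3:189631139-189631388, plus strand: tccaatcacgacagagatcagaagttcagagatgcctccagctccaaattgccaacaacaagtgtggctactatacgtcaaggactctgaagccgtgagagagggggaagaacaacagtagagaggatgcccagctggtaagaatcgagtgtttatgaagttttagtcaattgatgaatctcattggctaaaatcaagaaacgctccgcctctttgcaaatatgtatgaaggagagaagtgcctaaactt

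KLF4, chr9:107489770-107490019, minus strand: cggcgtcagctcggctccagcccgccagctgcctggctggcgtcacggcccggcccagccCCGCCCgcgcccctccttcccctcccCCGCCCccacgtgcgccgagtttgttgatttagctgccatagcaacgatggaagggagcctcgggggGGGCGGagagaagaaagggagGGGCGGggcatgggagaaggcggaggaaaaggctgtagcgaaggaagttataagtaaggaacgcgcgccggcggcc

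KLF5, chr13:73058755-73059004, plus strand: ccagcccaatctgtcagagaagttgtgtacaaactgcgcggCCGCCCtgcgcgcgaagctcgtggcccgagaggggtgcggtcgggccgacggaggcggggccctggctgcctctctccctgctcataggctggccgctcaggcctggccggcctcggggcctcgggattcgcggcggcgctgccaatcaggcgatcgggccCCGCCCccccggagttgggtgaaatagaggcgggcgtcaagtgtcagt

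The KLF4 window held 4 GC boxes and was 69.2% G or C, and the KLF5 window held 2 and was 70.8% G or C. The window of the other KLF5 start, at chr13:73054726-73054975, held 0 and was 40.8% G or C, so KLF5 has a window of either kind. The TP63 window held 0 and was 44% G or C. Over all 35116 windows of the table, 42.6% held at least 1 GC box, so its presence is common. The paired site AACCGGTT, the core that grainyhead-like factors bind, was in 0.117% of all windows and in 0 of the windows of the members. These matches describe letters only, and no binding was measured in this series.

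Levels between genes were compared as CPM per kb of the canonical transcript, over the 6 libraries of each line. In HN6 the order of the medians was KLF4 (35.4 CPM per kb), KLF5 (19.7), GRHL2 (13.6), PITX1 (8.14), OVOL1 (7.55), TP63 (7.27), GRHL3 (0.899), ZNF750 (0.0875) and SOX2 (0). The ranges of each neighbouring pair from KLF4 down to TP63 overlapped, and from TP63 on each gene was below the previous one in 6 of 6 libraries without overlap. In HN30 TP63 came first (46.5 CPM per kb), before KLF5 (30.3), PITX1 (27.7), KLF4 (22.02), GRHL2 (13.2), OVOL1 (5.90), GRHL3 (0.893), ZNF750 (0.564) and SOX2 (0). Here too the neighbours from TP63 down to OVOL1 overlapped, and the gap below OVOL1 did not. TP63 moved from the sixth place to the first, while GRHL2 and GRHL3 had nearly the same length-scaled median in both lines. The plot of length-scaled levels by cell line shows both orders together.

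**Figure D1:**
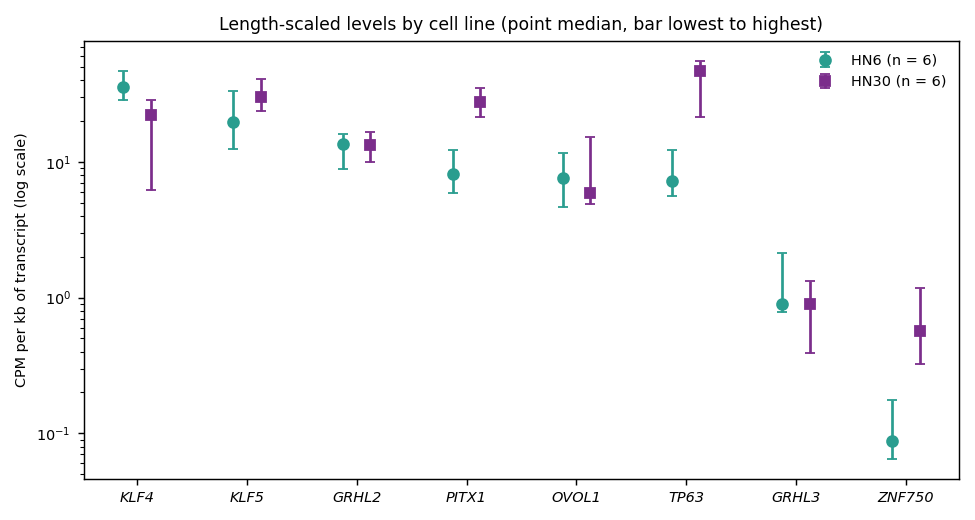
Level of each factor in CPM per kb of its canonical transcript, on a log axis, with the median of the 6 libraries of a line as the point and the lowest and highest library as the bar (SOX2, with a median of 0, cannot be drawn). TP63, PITX1 and ZNF750 have ranges that do not overlap between HN6 and HN30, and GRHL2 and GRHL3 have nearly equal medians.

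SOX2 was close to silent. It had 2 counts in the first repeat of siFAT1-2 in HN6, 4 in the first repeat of NC in HN30 and 0 in the other 10 of 12 libraries. A count of 0 allows a level of up to 0.0679 to 0.112 CPM, depending on the library, for counting error only, so no difference could be detected at this depth and none was tested. TP63 was thus present in these cells with its chromosome 3 neighbour at or near 0. Of the 10 other genes listed from the same arm, such as PIK3CA, SKIL and SENP2, all 10 had enough counts to be tested.

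The lines differed in 5 of the 8 tested factors, and this was the widest contrast in the set. TP63, PITX1, ZNF750 and KLF5 were higher in HN30 and KLF4 was lower, at an adjusted P under 0.05 (edgeR, 6 libraries against 6 with siRNA as a term). Across all genes tested 56.9% passed the same rule, so a change between lines was the common outcome for any gene. At the thresholds of the study, a P under 0.05 together with a log2 fold change beyond 1 in size, TP63, PITX1 and ZNF750 passed, 3 of 8 beside 31.7% of all genes. The 6 libraries of one line lay entirely apart from the other 6 in the same 3 genes, beside 26.0% of all genes. The median log2 fold change of the 8 members was 0.26, beside -0.00 over all genes.

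TP63 was 27.6 and 36.2 CPM in HN6 NC, 35.6 and 51.3 with siFAT1-1, and 31.5 and 60.9 with siFAT1-2. In HN30 it was 224 and 252 CPM in NC, 125 and 105 with siFAT1-1, and 235 and 275 with siFAT1-2. The lowest HN30 library was above the highest HN6 library, and the siFAT1-1 pair of HN30 stood well below the other 4 libraries of that line. Its log2 fold change in HN30 over HN6 was 2.26 ± 0.26 (SE), a 4.79-fold difference, with an adjusted P of 1.78e-05. In NC libraries only, 2 against 2, it was 2.90 with an adjusted P of 0.000325.

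PITX1 was 13.7 and 22.9 CPM in HN6 NC, 28.6 and 20.7 with siFAT1-1, and 15.2 and 17.3 with siFAT1-2. In HN30 it was 60.0 and 60.9 in NC, 68.8 and 68.7 with siFAT1-1, and 49.9 and 82.4 with siFAT1-2. No HN6 library reached the lowest HN30 library. The log2 fold change was 1.74 ± 0.18 (SE), 3.34-fold higher in HN30, with an adjusted P of 9.29e-06.

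**Figure D2:**
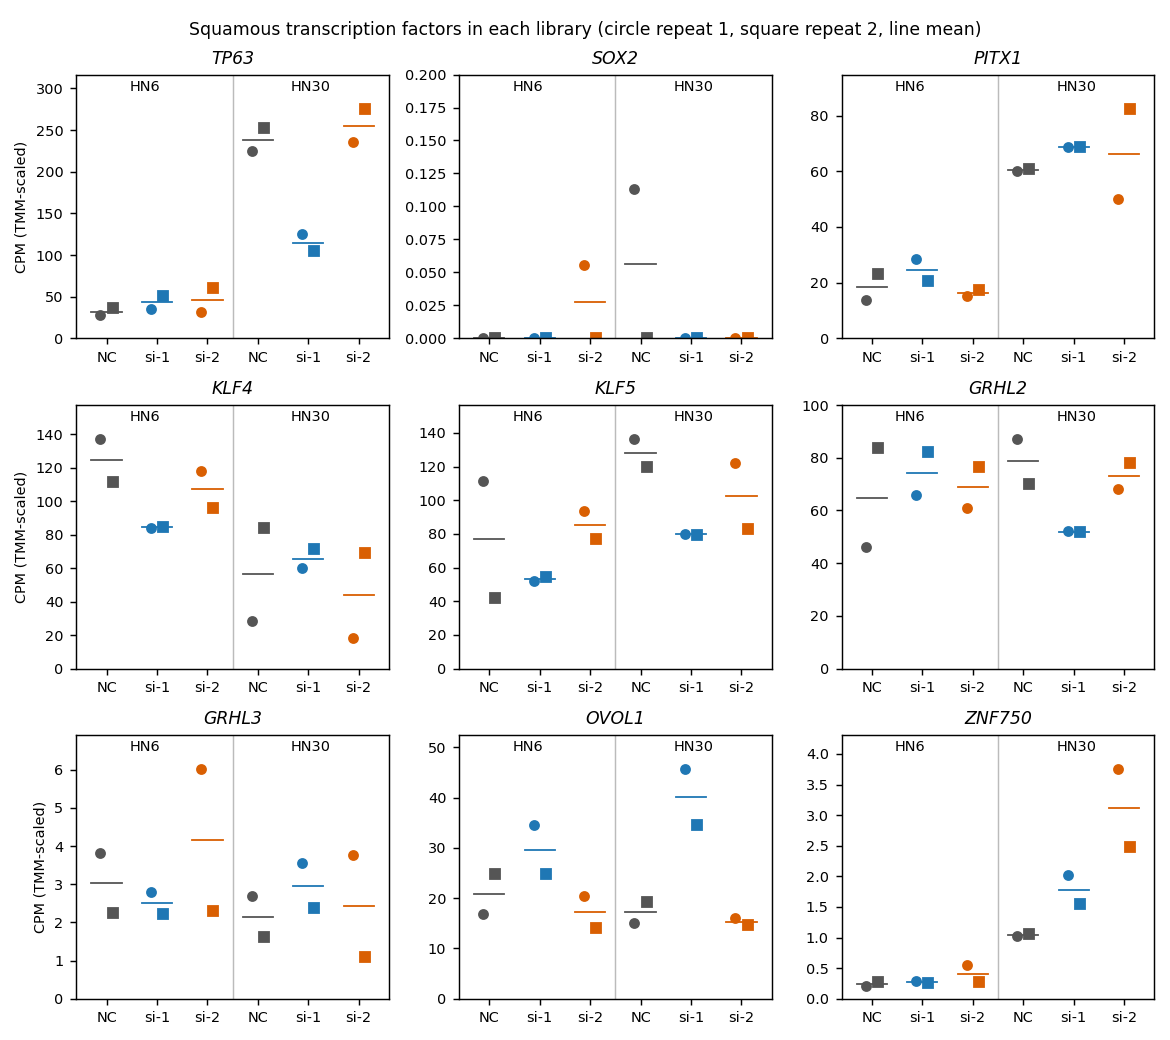
TMM-scaled CPM of each factor in the 12 libraries, with 1 panel a gene, a linear axis from 0, circles for the first and squares for the second repeat, and a short line at the mean of a condition (si-1, siFAT1-1; si-2, siFAT1-2). TP63 in HN30 drops to 125 and 105 CPM with siFAT1-1, OVOL1 is highest with siFAT1-1 in both lines, and ZNF750 reaches 3.75 and 2.47 CPM with siFAT1-2 in HN30.

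KLF4, a barrier factor that is also known from reprogramming, was 137 and 112 CPM in HN6 NC, 84.0 and 84.9 with siFAT1-1, and 118 and 95.9 with siFAT1-2. In HN30 it was 28.7 and 84.3 in NC, 60.1 and 71.4 with siFAT1-1, and 18.3 and 69.1 with siFAT1-2. The first repeats of NC and siFAT1-2 in HN30 were far below the second repeats, and the lines overlapped through the second NC repeat of HN30. KLF4 was lower in HN30 by a log2 fold change of -0.93 ± 0.33 (SE), with an adjusted P of 0.0282. This call was lost in NC libraries only (adjusted P of 0.157), and it was also lost without the first repeat of HN6 NC (0.0518), of HN6 siFAT1-2 (0.0555) or of HN30 NC (0.0527).

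KLF5, its basal counterpart, was 112 and 41.9 CPM in HN6 NC, 51.8 and 54.5 with siFAT1-1, and 93.7 and 77.2 with siFAT1-2. In HN30 it was 136 and 120 in NC, 80.1 and 79.2 with siFAT1-1, and 122 and 82.8 with siFAT1-2. The 2 NC repeats of HN6 were the lowest and the highest library of that line. KLF5 was higher in HN30 by 0.53 ± 0.21 (SE) on the log2 scale, with an adjusted P of 0.0474, and this call stood in 4 of the 12 fits that left out a library. The adjusted P without each library in turn reached 0.104, and in NC libraries only it was 0.164. The call was also lost with DESeq2 size factors (0.0607) and with the DESeq2 test (0.0503).

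ZNF750 was near the lower limit of detection in HN6, at 6 to 20 counts, and had 36 to 130 counts in HN30. In HN6 it was 0.205 and 0.282 CPM in NC, 0.294 and 0.255 with siFAT1-1, and 0.554 and 0.271 with siFAT1-2. In HN30 it was 1.02 and 1.06 in NC, 2.02 and 1.54 with siFAT1-1, and 3.75 and 2.47 with siFAT1-2. All HN30 libraries were above all HN6 libraries, and within HN30 all 4 KD libraries were above both NC libraries. The log2 fold change between the lines was 2.57 ± 0.31 (SE), 5.93-fold, with an adjusted P of 2.6e-05. TBCD, whose exons overlap, was lower in HN30 by -0.61 on the log2 scale and so changed the other way.

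GRHL2, GRHL3 and OVOL1 did not pass the test between the lines. GRHL2 ran from 46.1 to 83.7 CPM in HN6 and from 52.0 to 87.1 in HN30, with a log2 fold change of -0.05 and an interval of 2 SE from -0.41 to 0.32. GRHL3 ran from 2.23 to 6.01 CPM in HN6 and from 1.11 to 3.78 in HN30, with -0.35 and a wider interval from -1.08 to 0.39. OVOL1 gave -0.00, with an interval from -0.36 to 0.36. The intervals of GRHL2 and OVOL1 stay within 1 on the log2 scale in either direction, and that of GRHL3 does not. In the NC libraries alone the GRHL2 value was 0.28, with the opposite sign.

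**Figure D3:**
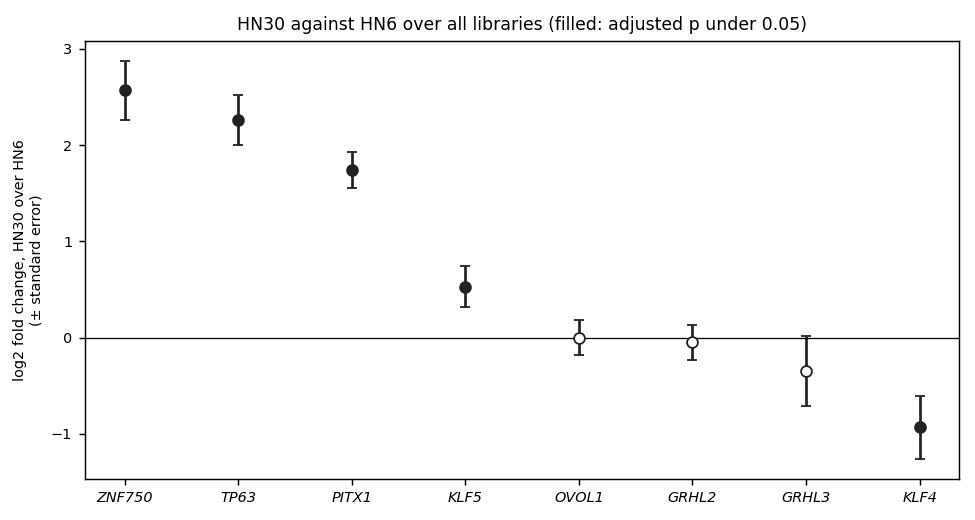
Log2 fold change of each tested factor in HN30 over HN6 (edgeR, 6 libraries a line), ordered by size, with bars of 1 standard error and filled points for an adjusted P under 0.05. ZNF750 (2.57), TP63 (2.26) and PITX1 (1.74) lead, KLF4 (-0.93) is at the other end, and GRHL2, OVOL1 and GRHL3 are open points.

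FAT1 KD against NC, the main question of the series, called 0 of the 8 factors at an adjusted P under 0.05 (edgeR, all 12 libraries with cell line as a term), beside 0.547% of all genes. It also called 0 at the thresholds of the study, beside 3.07%, and limma-voom and DESeq2 called 0 under either rule. Over all genes these tools called 0.691% and 4.61% at the adjusted level, and 515 and 525 of 13887 at the study's thresholds. At an unadjusted P under 0.05 there was 1 of 8, ZNF750, beside 14.5% of all genes, so a share near the background. Its log2 fold change was 0.90 ± 0.38 (SE), with an adjusted P of 0.309. The value of ZNF750 was above the study's fold threshold without the second repeat of HN6 NC, at 1.08. The other 7 lay between -0.32 for KLF5 and 0.42 for OVOL1, and the median over the 8 was 0.10, beside 0.02 over all genes. The 2 SE intervals stayed within 1 in either direction for TP63 (-0.54 to 0.62), PITX1 (-0.26 to 0.58) and GRHL2 (-0.50 to 0.29). They also did for KLF5 (-0.83 to 0.18) and KLF4 (-0.88 to 0.45). For OVOL1 (-0.25 to 1.10), GRHL3 (-0.55 to 1.01) and ZNF750 (0.13 to 1.66) they reached beyond 1. In HN6, 0 of 8 factors had their 4 KD libraries all above or all below the NC pair, beside 16.1% of all genes, and in HN30 this held for ZNF750 alone, beside 20.8%.

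The factors were also compared by siRNA. siFAT1-1 and siFAT1-2 were each compared with the same 4 NC libraries, so the pair of comparisons is not independent, and their values are set side by side here. With siFAT1-1, 0 of 8 factors passed at an adjusted P under 0.05, beside 3.25% of all genes, and 0 at the study's thresholds, beside 5.58%. At an unadjusted P under 0.05 there were 2 of 8, OVOL1 and KLF5, beside 19.0% of all genes. limma-voom called 0, beside 3.98%, and DESeq2 called 1, OVOL1, beside 8.76%, with an adjusted P of 0.00426. With siFAT1-2, 0 passed at an adjusted P under 0.05, beside 11.8% of all genes, and ZNF750 passed at the study's thresholds, beside 9.06%. At an unadjusted P under 0.05 there was 1 of 8, ZNF750, beside 28.9%. limma-voom and DESeq2 each called 1 of 8 there, ZNF750, with adjusted P of 0.0348 and 0.00887, beside 13.8% and 19.4% of all genes. None of these member counts stands apart from its background.

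OVOL1 was 16.8 and 24.7 CPM in HN6 NC, 34.5 and 24.8 with siFAT1-1, and 20.4 and 14.0 with siFAT1-2. In HN30 it was 15.2 and 19.3 in NC, 45.6 and 34.5 with siFAT1-1, and 16.0 and 14.6 with siFAT1-2. The siFAT1-1 libraries were above the siFAT1-2 libraries in both lines, and in HN30 they were also far above NC. Against NC, OVOL1 had a log2 fold change of 0.88 ± 0.23 (SE) with siFAT1-1, with an adjusted P of 0.0639, and of -0.23 ± 0.23 with siFAT1-2 (0.55). Without the second repeat of HN6 NC the siFAT1-1 value was 1.02, with an adjusted P of 0.0281.

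The direct comparison of the siRNAs called 1 of the 8 factors, OVOL1, beside 17.4% of all genes at an adjusted P under 0.05 and 12.4% at the study's thresholds. OVOL1 was 2.14-fold higher with siFAT1-1 than with siFAT1-2, a log2 fold change of 1.10 ± 0.23 (SE) with an adjusted P of 0.00931. The call stood in all 12 fits that left out a library, although without the first siFAT1-1 repeat of HN30 the log2 value was 0.93 and so below the study's fold threshold. OVOL1 and KLF5 were the factors whose siFAT1-1 libraries lay on the same side of the siFAT1-2 libraries in both lines, 2 of 8 beside 34.1% of all genes. KLF5 was lower with siFAT1-1 by -0.53 ± 0.26 (SE) on the log2 scale, with an adjusted P of 0.168 (0.0293 without the second repeat of HN6 NC). FAT1 itself was not equally low under the siRNAs, with a log2 difference of -0.73 and an adjusted P of 0.119, and the part of this in OVOL1 was not tested. Markers of simple and glandular epithelium moved with the same contrast: 5 of the 6 tested, KRT8 (0.90) and KRT7 (1.02) among them, were higher with siFAT1-1, and the sum of the list was 6672 to 15057 CPM with siFAT1-1 and 3060 to 8842 with siFAT1-2. Of the 5 tested markers of fibroblasts, leukocytes and endothelium, 2 were higher and 1 lower with siFAT1-1, and the sum of that list was 56.5 to 191 CPM with siFAT1-1 and 46.6 to 282 with siFAT1-2. Over all 13887 genes tested, 1394 were called higher and 1026 lower with siFAT1-1 than with siFAT1-2 (edgeR, adjusted P under 0.05). The counts of every list between the siRNAs are to be read beside these. The part of either marker list in the OVOL1 result was not tested.

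KLF5 against NC had a log2 fold change of -0.61 ± 0.26 (SE) with siFAT1-1, with an adjusted P of 0.222, and of -0.08 ± 0.26 with siFAT1-2 (0.86). Its NC repeats in HN6 were 112 and 41.9 CPM, on either side of all KD libraries of that line. Without the 41.9 CPM library the siFAT1-1 value was -0.87 with an adjusted P of 0.0168, and without the other it was -0.39. ZNF750 against NC had a log2 fold change of 1.22 ± 0.37 (SE) with siFAT1-2, 2.33-fold, with an adjusted P of 0.0517, and of 0.51 ± 0.37 with siFAT1-1 (0.483). Without the second siFAT1-2 repeat of HN6 the first of these was 1.41 with an adjusted P of 0.0287. The difference between the siRNAs for ZNF750 was -0.71, with an adjusted P of 0.184. TBCD gave -0.44 with siFAT1-2, with the opposite sign to ZNF750, but did not pass (edgeR, adjusted P of 0.139). Within HN30 it gave -0.23 (0.702). The part of overlapping reads in the ZNF750 values was not tested.

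The other factors gave small values with either siRNA. TP63 had -0.28 with siFAT1-1 and 0.28 with siFAT1-2, and a difference between them of -0.56 with an adjusted P of 0.213. PITX1 had 0.31 and -0.01, KLF4 -0.15 and -0.29, GRHL2 -0.19 and -0.02, and GRHL3 0.12 and 0.33. None of these passed. With siFAT1-2 the intervals of KLF4 (-1.07 to 0.50) and GRHL3 (-0.56 to 1.22) reached beyond 1 on the log2 scale on at least one side. With siFAT1-1 the interval of GRHL3 did so too (-0.77 to 1.01). The median over the 8 members was -0.01 with siFAT1-1 and -0.02 with siFAT1-2, and over all genes it was -0.00 in each.

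**Figure D4:**
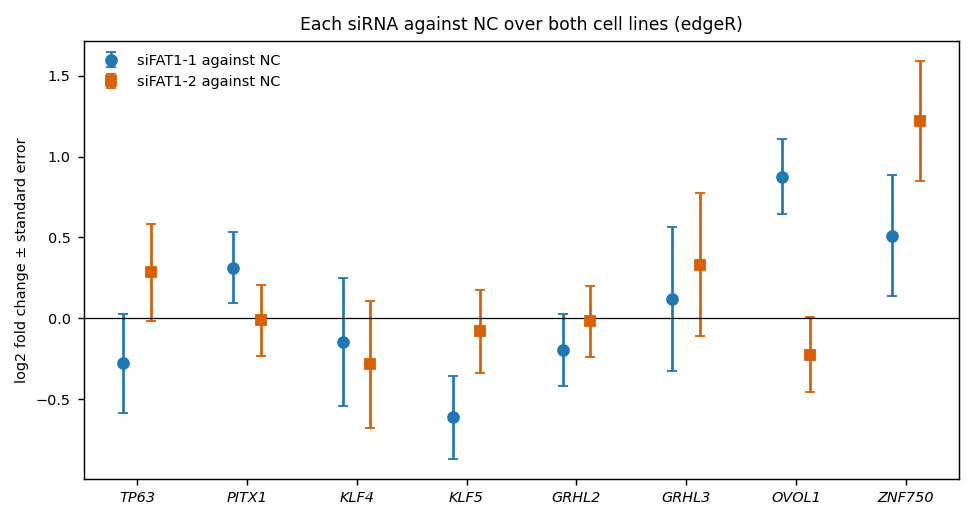
Log2 fold change of each tested factor with siFAT1-1 and with siFAT1-2 against the same NC libraries (edgeR, both lines), with bars of 1 standard error. OVOL1 stands at 0.88 with siFAT1-1 and -0.23 with siFAT1-2, ZNF750 at 0.51 and 1.22, and KLF5 at -0.61 and -0.08.

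With siFAT1-1, both HN30 libraries had less TP63 than either NC library, and this was not so in HN6. These contrasts were chosen after the values of TP63, OVOL1 and ZNF750 had been seen, and they rest on 2 libraries against 2 with a spread shared over all conditions. In HN30, TP63 was 238 ± 19.6 CPM in NC and 115 ± 14.1 with siFAT1-1 (SD, n = 2), or 48.3% of NC. The log2 fold change was -1.05 ± 0.32 (SE) at an unadjusted P of 0.00793, past the study's thresholds, with an adjusted P of 0.128. In HN6 the means were 31.9 ± 6.07 and 43.5 ± 11.1 CPM, with a log2 fold change of 0.44 ± 0.32 and an adjusted P of 0.837. With siFAT1-2 in HN30 TP63 gave 0.10 ± 0.31. The test of the difference itself, line by siFAT1-1, gave -1.495 ± 0.45 for TP63 at an unadjusted P of 0.00753, but an adjusted P of 1.00.

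In HN30 with siFAT1-1, TP63 and OVOL1 passed the study's thresholds, 2 of 8 beside 9.22% of all genes, and 0 of 8 passed at an adjusted P under 0.05, beside 1.46%. At an unadjusted P under 0.05 there were the same 2, beside 17.4% of all genes. At the adjusted level limma-voom called 0, beside 1.63%, and DESeq2 called 2, beside 8.39%. OVOL1 had a log2 fold change of 1.22 ± 0.32 (SE), with means of 17.2 and 40.1 CPM and an adjusted P of 0.0886. Without the second repeat of HN30 NC or of HN30 siFAT1-1 the count at the study's thresholds was 1, since TP63 then gave -0.97 and -0.94. GRHL2 was 52.0 and 52.0 CPM with siFAT1-1 in HN30, below its 87.1 and 70.2 in NC and its 68.2 and 77.9 with siFAT1-2, and gave -0.60 ± 0.29 (SE) against NC, which did not pass (adjusted P of 0.324). In HN6 with siFAT1-1, 0 of 8 passed under either rule, beside 0.108% and 3.02% of all genes (the first was 5.80% without the first repeat of HN6 NC), and 0 had an unadjusted P under 0.05 and 0 were called by limma-voom or DESeq2. Over all genes in this HN6 contrast, 7.40% had an unadjusted P under 0.05. At the adjusted level limma-voom called 0.122% and DESeq2 1.36%. In HN30 with siFAT1-2, where FAT1 itself passed neither rule (-0.61), ZNF750 passed the study's thresholds with 1.58 ± 0.50, 1 of 8 beside 8.48%. There 0 of 8 passed at an adjusted P under 0.05, beside 0.173% (DESeq2 called 1, beside 6.98%, and limma-voom 0, beside 0.288%). Without the first siFAT1-2 repeat of HN30, ZNF750 had 1.25 and the count was 0.

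The planned test of whether KD acted differently in the lines called 0 of 8 factors, and 0% of all genes, at an adjusted P under 0.05. It also called 0 of 8 at the study's thresholds, beside 2.53% of all genes. At the adjusted level limma-voom and DESeq2 called 0 members, beside 0% and 0.0144% of all genes. At an unadjusted P under 0.05 there was 1 member, TP63, with -0.96 ± 0.39 (SE) and an adjusted P of 0.974, beside 556 of 13887 genes. The 0% over all genes turned on 1 library: without the first repeat of HN6 NC, 886 of 14063 genes (6.30%) were called, and 0 members. KD against NC gave 0.49 for TP63 in HN6 and -0.48 in HN30. For FAT1 itself it gave -2.19 in HN6 and -0.98 in HN30, so the estimated knockdown was not equal in the lines. For the line by siFAT1-1 contrast, the share of all genes called was 0% at an adjusted P under 0.05 and 3.07% at the study's thresholds, where TP63 was 1 of 8, and 542 genes had an unadjusted P under 0.05. Without that same NC library 250 of 14063 genes (1.78%) were called, and 0 members. A P that misses the threshold does not show that the lines responded alike.

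The levels of the factors across the 12 libraries were also set against each other, after the mean of each line had been subtracted from log2 CPM. These correlations describe libraries that share conditions and repeats, and carry no test. TP63 and GRHL2 were most alike (Pearson r = 0.798, n = 12 libraries), TP63 and OVOL1 went opposite ways (-0.686), and the most opposed pair was PITX1 and KLF5 (-0.857). Among all genes tested, the 2 most like TP63 were FAM122B (0.969) and ZNF519 (0.964), and the 2 most like OVOL1 were PRKAG2 (0.98) and RASA4B (0.965), the latter a gene with near-identical copies and a mean of 0.605 CPM. For PITX1 they were LENG9 (0.937) and WWP2 (0.88), for KLF4 B4GALT5 (0.922) and TEKT4 (0.919), and for KLF5 EIF5A2 (0.965) and MTIF3 (0.933). For GRHL2 they were HACD3 (0.922) and C12orf45 (0.898), for GRHL3 MAP3K12 (0.954) and ADAMTSL5 (0.936), and BSDC1 (0.947) was among those most like ZNF750.

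The genes around these factors were followed through lists, chosen with earlier results of these data known and described by counts and medians. Of 25 other transcription factors of squamous and surface epithelium, 23 were tested, and KD against NC called 0 at an adjusted P under 0.05. TP73, the relative of TP63, passed the study's thresholds with -1.08 ± 0.23 (SE) and an adjusted P of 0.0615. With KD the list had a median of -0.12, beside 0.02 over all genes. By siRNA (edgeR), 1 of the 23 was called lower with siFAT1-1 and 2 with siFAT1-2, and 0 higher. TP73 was among them each time, with -1.26 (adjusted P of 0.0213) and -0.92 (0.0369). Over all genes 1.16% were called higher and 2.09% lower with siFAT1-1, and 4.35% and 7.47% with siFAT1-2. The counts of the other lists by siRNA are to be read beside these shares. Between the lines 4 of the 23 were higher and 7 lower in HN30, with a median of 0.16. FOXE1, a forkhead factor of foregut epithelium, was 45.5 to 71.4 CPM in HN6 and at 0 in 5 of 6 HN30 libraries. DLX5 was 0.224 to 2.74 CPM in HN30 and at 0 in 5 of 6 HN6 libraries, and TFAP2C was higher in HN30 by 0.80.

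The basal keratinocyte program, genes of the layer where p63 acts, had 19 tested members. KD against NC called 1 higher and 0 lower, beside 0.295% and 0.252% of all genes, with a median of -0.22. PERP, a desmosomal p63 target, rose by 1.37 ± 0.18 (SE) with an adjusted P of 0.00749, from 256 to 641 CPM with siFAT1-1 in HN6 and from 270 to 692 in HN30, as means of 2. DSG3, a desmosomal cadherin, passed the study's thresholds with 1.32. By siRNA, 2 of the 19 were called higher and 0 lower with siFAT1-1, and 2 higher and 4 lower with siFAT1-2. Between the siRNAs 6 of the 19 were higher and 1 lower with siFAT1-1, with a median of 0.70 beside -0.02 over all genes. Of all 13887 genes, 1394 were called higher and 1026 lower with siFAT1-1 in the same comparison. KRT17 differed by 2.82 and ITGA3 by 0.70, and DSG3 was lower with siFAT1-1, by -0.94. KRT17 shares long near-identical stretches with other keratins and its counts are uncertain to that extent. TP63 gave -0.56 in the same contrast. In HN30 against HN6, 1 of the 19 was higher and 9 were lower, with a median of -0.59. Over all genes 28.2% were called higher and 28.8% lower in this contrast, and the counts of every list between the lines are to be read beside these shares. S100A2, a p63 target, was higher by 2.46, and COL17A1 and KRT17 were lower by -2.76 and -3.70.

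The squamous differentiation program, the genes that KLF4, GRHL3, OVOL1 and ZNF750 are known to act on, was mostly low: 19 of its 31 genes had enough counts, and KRT1, TGM3, LOR and CRNN were at 0 in all 12 libraries. KD against NC called 0 of the 19, with DSC2 (1.02) and SBSN (-2.05) past the study's thresholds and a median of -0.26. With each siRNA 1 of the 19 was called lower and 0 higher, IVL with siFAT1-1 and SBSN with siFAT1-2. In HN30 against HN6, 4 were higher and 10 lower, with a median of -1.495. PPL and ABCA12 were higher, by 1.05 and 1.93, and TGM5 was lower by -3.74, while KLK5 was 96.9 to 322 CPM in HN6 and at 0 in 4 of 6 HN30 libraries. Of the factors named with this list, ZNF750 was higher and KLF4 lower in HN30. Of the 10 junction and splicing genes listed as GRHL2 targets, KD called 0, with a median of 0.26. With each siRNA 1 was called higher and 0 lower, CDH1 (0.93) with siFAT1-1 and EPCAM (0.86) with siFAT1-2. The line comparison called 3 of the 10 higher in HN30, among them ST14 (1.55) and RAB25 (1.76). It called 2 lower, CDH1 (-0.59) and CLDN7 (-0.59), while GRHL2 itself gave -0.05.

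Of the 9 mesenchymal genes that OVOL and GRHL factors oppose, KD called 0 at an adjusted P under 0.05, and VIM passed the study's thresholds with -1.02. By siRNA, 0 were called with siFAT1-1, and 1 with siFAT1-2, VIM, lower by -1.43. In the line comparison 0 were higher and 7 lower in HN30, with a median of -2.08. VIM was 278 to 1548 CPM in HN6 and 0.461 to 2.18 in HN30, and TWIST2 was 1.44 to 4.88 in HN6 and at 0 in all 6 HN30 libraries. OVOL1 and GRHL2 themselves gave -0.00 and -0.05 in this contrast. The median of the list is the same with TWIST2 set to the level that 3 counts give. Of the 10 genes near SOX2 and TP63 on chromosome 3, KD called 0, with a median of 0.46. The values differed by siRNA: the median was -0.20 with siFAT1-1 (0 called) and 0.85 with siFAT1-2 (2 called higher, 10 of 10 positive), against the same NC libraries. Of all genes, 4.35% were called higher with siFAT1-2. In HN6 the second NC repeat was the lowest library for PIK3CA (1.97 CPM, beside a line median of 22.9). The same held for SKIL (6.48 beside 56.3) and ECT2 (8.51 beside 45.0). The part of this library in the medians against NC was not tested. In the direct comparison 2 were lower with siFAT1-1 and 0 higher, with a median of -0.56, and TP63 itself gave -0.56 without passing. Of all 13887 genes, 1026 were called lower and 1394 higher with siFAT1-1 there. Between the lines 0 were higher and 2 lower, SENP2 (-0.70) and CLDN1 (-0.70), with a median of 0.10. TP63 was higher in HN30 while 0 of these 10 were called higher there. The 6 tested markers of simple epithelium gave 2 higher and 4 lower in HN30, and the 5 tested markers of fibroblasts, leukocytes and endothelium 0 and 4. KD called 0 of either set. By siRNA 1 was called, KRT7 of the simple epithelial set, lower with siFAT1-2 (-0.88).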

How the data were processed

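Poly(A) RNA of HN6 and HN30 cells was sequenced in 12 libraries, 2 for each condition. Per the labels and methods, the authors discarded reads with poly-N, duplicates and those of low quality before mapping to hg38, and deposited raw counts per gene. The submitters' processing notes name HISAT2 and featureCounts. Versions, annotation and strand setting are not given in the sources used here. The columns of per-sample values left out numbered 0.

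Genes were kept with filterByExpr (edgeR 4.0.16, minimum count of 10, by siRNA), which left 13887, and were scaled by TMM. Every fit covered the whole table with glmQLFit and glmQLFTest, with the Benjamini-Hochberg adjustment taken over all genes tested. The models were cell line with KD, cell line with siRNA, and the means of the 6 conditions. Log2 CPM used a prior count of 2 and fitted fold changes one of 0.125. limma 3.58.1, DESeq2 1.42.0 and R 4.3.3 served the alternatives, and Python 3.11.15 the annotation and figures. The scripts were tested on simulated data.

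The members, lists and added contrasts were chosen with earlier results of these data known. Named were the 9 members, FAT1, the 2 genes most correlated with each member, and in each list up to 2 higher and 2 lower called genes with the smallest P; some genes that this rule names are not reported here, and others named for the marker check, for overlap, for the siRNA contrast or as examples were chosen after their values were seen.

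The sample titles mark the repeats as separate times, so repeat numbers pair libraries within a line. The deviations of paired libraries correlated at 0.0778 to 0.242 in HN6 and at -0.0337 to 0.405 in HN30. P-values measure the spread that each model leaves. With the means of the 6 conditions this is the spread between these repeats. With cell line and siRNA as terms it also holds differences between the lines in the response to an siRNA. With cell line and KD as terms it holds differences between the siRNAs as well. Depth is given by the total counts, and intervals and floors cover counting error only or, for fold changes, 2 standard errors.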

Additional observations from a re-analysis of the deposited data

Results flagged for a closer look

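OVOL1 differed between the siRNAs under the same contrast with NC: the test of the difference itself gave a log2 value of 1.10 ± 0.23 (SE), higher with siFAT1-1 in both repeats of both lines, with an adjusted P of 0.00931 (edgeR). The log2 fold change against NC was 0.88 with siFAT1-1 and -0.23 with siFAT1-2.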

How the results depend on the processing

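OVOL1 between the siRNAs, and TP63, PITX1 and ZNF750 between the lines, kept direction and call (adjusted P under 0.05) under all 8 alternatives and all 12 fits without 1 library. The number of members called was 1 in place of 0 for siFAT1-1 with the DESeq2 Wald test, 1 in place of 0 for siFAT1-2 with DESeq2 size factors, a CPM filter, limma-voom or DESeq2, and 0 in place of 1 at the study's thresholds without a cell line term. It was 3 in place of 5 between the lines in NC libraries only, where 4524 of 13887 genes were called in place of 7907. With DESeq2 the number of members was 2 for siFAT1-1 and 1 for siFAT1-2 within HN30. The paired fit (replicate block) changed no member's call at an adjusted P under 0.05; at the study's thresholds it added KLF4 between the lines (-1.05), for 4 members in place of 3, as did limma-voom. Values near 0 changed sign. For TP63 with KD they were -0.10 with limma-voom and -0.23 without the line term. For siFAT1-2, PITX1 gave 0.011 with DESeq2 size factors, 0.011 with DESeq2 and 0.065 without the line term, and GRHL2 gave 0.0056 with size factors, 0.0095 with limma-voom, 0.0056 with DESeq2 and 0.0025 with the replicate block. KLF4 between the siRNAs gave -0.0061 without the line term. Between the lines GRHL2 gave 0.28 in NC libraries, and OVOL1 0.037 with limma-voom and 0.0013 with the replicate block. The PITX1 interaction gave -0.022 with limma-voom and -0.0085 with the replicate block. The cause was not tested.

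Without each library in turn, the count of members called ran from 0 to 2 for siFAT1-1, 0 to 1 for siFAT1-2, 1 to 2 between siRNAs and 3 to 5 between lines. At the study's thresholds it ran from 0 to 1 for KD, siFAT1-1, the siRNAs, the interaction and siFAT1-1 in HN6, from 1 to 2 for siFAT1-1 in HN30 and for the line by siFAT1-1 contrast, from 3 to 4 between the lines, and from 0 to 2 for siFAT1-2 in HN30. Values that changed sign in these fits ran as follows. With KD, TP63 ran from -0.14 to 0.18, KLF4 from -0.47 to 0.043 and GRHL2 from -0.30 to 0.019. With siFAT1-1, KLF4 ran from -0.42 to 0.13 and GRHL3 from -0.12 to 0.29. With siFAT1-2, PITX1 ran from -0.23 to 0.14, KLF4 from -0.55 to 0.0097, KLF5 from -0.32 to 0.15, GRHL2 from -0.21 to 0.11 and GRHL3 from -0.094 to 0.62. Between siRNAs, KLF4 ran from -0.19 to 0.43 and GRHL3 from -0.53 to 0.18. Between lines, GRHL2 ran from -0.19 to 0.036 and OVOL1 from -0.12 to 0.12. For the interaction, PITX1 ran from -0.37 to 0.36, KLF4 from -0.32 to 1.29, KLF5 from -1.18 to 0.25 and GRHL3 from -0.34 to 0.66. Over all genes, the DESeq2 Wald test called 640 with KD in place of 76 and the fit without a line term 4, and the replicate block 44. Between the lines, DESeq2 size factors and the DESeq2 test each called 4 members, without KLF5. The interaction called 886 genes without the first repeat of HN6 NC in place of 0. The alternatives include a filter by the 6 conditions, chosen after seeing the data. Depth limits SOX2 and, in HN6, ZNF750.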
